A study of Mus musculus with 6 samples.

Results

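The genes described here serve the uptake of apoptotic cells by macrophages, and they were taken by name. They are the receptor tyrosine kinases *Mertk*, *Axl* and *Tyro3*, the bridging ligands *Gas6*, *Pros1* and *Mfge8*, the phosphatidylserine receptor *Timd4*, the engulfment genes *Elmo1* and *Dock2*, and the inhibitory receptor *Sirpa*. All 10 names were found, each on 1 row, among the 22248 genes listed. RNA sequencing compared unstimulated bone marrow-derived macrophages (BMDMs), which are marrow cells cultured with macrophage growth factor, from 3 control and 3 CITED2-deficient samples. CITED2 is a nuclear cofactor that binds the coactivators CBP and p300. Control mice were Lyz2cre, and CITED2-deficient mice were Cited2 fl/fl:Lyz2cre, with floxed *Cited2* alleles that Cre recombinase removes. Both groups were on the C57BL/6 background and both carried the Cre allele. The age label is postnatal week 10, while the methods of the study give a younger age for the marrow donors. Cre was driven from the *Lyz2* locus, which is active in myeloid cells in general, so deletion was not limited to macrophages. The labels do not tie each library to its own mouse, so p-values measure the spread between these samples. The comparison asks how the expression of these genes differs between the genotypes. Uptake itself was not measured.

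Dying cells expose phosphatidylserine on their outer membrane. Phagocytes bind it directly through receptors such as TIM-4, or through bridging proteins that link it to receptors on the phagocyte. GAS6 and protein S are the bridging ligands of TYRO3, AXL and MERTK, which are called the TAM receptors, with protein S acting on MERTK and TYRO3. MFG-E8 bridges to integrins. Signals from these receptors reach the GTPase RAC through complexes of ELMO and DOCK proteins, and RAC drives the actin rearrangement that closes the phagocytic cup. SIRPα acts in the opposite direction, because its binding to CD47 on a target cell restrains engulfment.

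The deleted gene was checked first. *Cited2* (ENSMUSG00000039910) measured 71.7, 79.3 and 75.5 FPKM in the control libraries and 9.27, 7.22 and 7.53 FPKM in the CITED2-deficient libraries. FPKM are fragment numbers divided by gene length and by the size of the library, so levels of different genes can be compared per length. The groups did not overlap, and *Cited2* fell by 3.09 on the log2 scale (SE 0.08, adjusted p = 6.575e-09). Fragment numbers recovered from the FPKM were 17289286 to 18952077 per control library and 22583995 to 26100410 per CITED2-deficient library, so the CITED2-deficient group was sequenced 1.34-fold deeper on average. All 7 macrophage markers were expressed, and their summed level was 7025 to 7102 FPKM in control and 7050 to 7184 FPKM in CITED2-deficient libraries. Within this sum *Fcgr1* and *Mpeg1* were higher, and *Adgre1* and *Csf1r* were lower, in CITED2-deficient libraries. Most markers of fibroblasts and stromal cells were higher in CITED2-deficient BMDMs. Of 14 such markers, 10 were tested and all 10 were higher, where 16.7% of all genes tested were higher. Only genes with a mean of at least 1 FPKM over all 6 libraries were tested. A marker such as *Postn*, at 0.394 FPKM in control and 3.47 FPKM in CITED2-deficient libraries, was thus tested through the higher group. The 4 others, *Lum*, *Tagln*, *Thy1* and *Lepr*, overlapped between the groups and did not pass the threshold without a filter. The sum over all 14 was 59.0 to 69.1 FPKM in control against 627, 221.3 and 224.4 FPKM in CITED2-deficient replicates 1, 2 and 3. In bulk RNA, fewer cells of a type and less RNA per cell cannot be told apart.

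Differences were tested with limma on log2(FPKM + 1) over the 11687 genes with a mean of at least 1 FPKM, and p-values were adjusted by Benjamini-Hochberg over all of them. Log2 fold changes are CITED2-deficient minus control on this scale, where the added 1 shrinks differences between weakly expressed genes. Of the 10 uptake genes, 8 passed the filter and were tested. *Axl*, *Dock2* and *Mfge8* were higher in CITED2-deficient BMDMs, *Gas6*, *Pros1* and *Mertk* were lower, and *Elmo1* and *Sirpa* did not pass the threshold of 0.05. Over all genes tested, 16.7% were higher and 34.6% were lower, so the share of the uptake genes that fell was close to the background. The share that rose was above it, but it rests on 3 of 8 genes and the difference was not tested. The median log2 fold change was 0.01 over the 8 uptake genes and −0.10 over all genes. The same 6 genes that passed the test were the tested genes whose groups did not overlap, 3 higher and 3 lower, where 19% of all genes tested were higher without overlap and 40.9% were lower without overlap. Under median-ratio scaling, which centres the typical gene near 0, the calls over all genes were 2696 higher and 2490 lower instead of 1950 and 4044, and 4 uptake genes were higher and 3 lower.

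**Figure D1:**
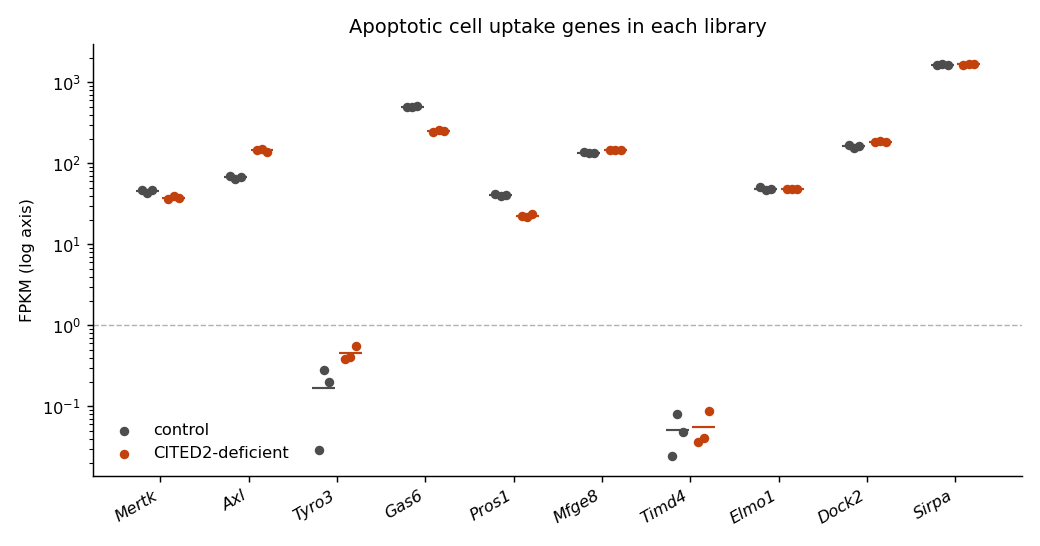
FPKM of the 10 uptake genes in each library on a log axis, with 3 control and 3 CITED2-deficient points per gene and a bar at each group mean; the dashed line is the mean of 1 FPKM a gene needed to be tested. *Sirpa* is the most abundant gene in both groups, *Axl* is higher and *Gas6* and *Pros1* are lower in every CITED2-deficient library, and *Tyro3* and *Timd4* lie below the line.

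*Axl* had the largest rise of the 8 tested uptake genes. AXL is the TAM receptor whose ligand is GAS6, and macrophages are known to raise it under inflammatory stimuli. *Axl* (ENSMUSG00000002602, GRCm38 chr7:25757273-25788705, minus strand) measured 69.7, 64.4 and 67.6 FPKM in control and 143.9, 149.0 and 139.3 FPKM in CITED2-deficient libraries. All 3 CITED2-deficient values exceeded the highest control value. The group means were 67.2 ± 2.67 and 144.1 ± 4.85 FPKM (SD, n = 3 each), a ratio of 2.14. The log2 fold change was 1.09 (SE 0.04, 95% confidence interval 1.00 to 1.18, limma adjusted p = 5.309e-08). Its rise ranked 376 of 11687, and its place among all 22248 genes by level moved from 1764 to 747. Without CITED2-deficient replicate 1, the library with the most stromal marker RNA, the log2 fold change was 1.09. The remaining CITED2-deficient libraries also held more stromal marker RNA than every control library. The part of stromal RNA in the *Axl* rise was not tested.

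The promoter sequences of *Axl*, *Gas6* and *Pros1* are shown because these genes changed most, in opposite directions. They run from 250 bases before to 50 bases after the transcription start in RefSeq (GRCm38.p6), and each is written 5′ to 3′ on the strand of its gene. Capitals mark GC boxes, GGGCGG on either strand, and in *Pros1* also TTCNNNGAA, the letters that STAT proteins recognise.
Axl: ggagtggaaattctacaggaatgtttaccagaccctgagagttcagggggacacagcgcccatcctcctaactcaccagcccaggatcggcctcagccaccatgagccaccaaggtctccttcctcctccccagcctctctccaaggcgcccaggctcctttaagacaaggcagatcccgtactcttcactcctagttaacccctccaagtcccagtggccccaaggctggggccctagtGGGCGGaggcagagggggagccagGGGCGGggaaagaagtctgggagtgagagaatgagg
Gas6: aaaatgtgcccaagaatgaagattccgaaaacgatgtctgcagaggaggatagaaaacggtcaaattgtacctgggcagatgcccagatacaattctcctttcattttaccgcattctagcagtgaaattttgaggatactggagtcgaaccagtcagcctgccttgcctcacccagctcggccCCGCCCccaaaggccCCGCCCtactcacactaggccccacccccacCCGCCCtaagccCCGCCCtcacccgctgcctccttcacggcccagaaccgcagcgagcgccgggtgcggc
Pros1: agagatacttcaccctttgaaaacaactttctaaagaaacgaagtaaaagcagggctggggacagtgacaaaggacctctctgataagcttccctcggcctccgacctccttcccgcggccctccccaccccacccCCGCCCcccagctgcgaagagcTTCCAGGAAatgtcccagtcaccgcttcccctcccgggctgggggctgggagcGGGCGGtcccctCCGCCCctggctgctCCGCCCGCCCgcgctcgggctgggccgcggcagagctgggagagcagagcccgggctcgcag
They lie at chr7:25788684-25788983 on the minus strand for *Axl*, chr8:13494486-13494785 on the minus strand for *Gas6* and chr16:62854057-62854356 on the plus strand for *Pros1*. The *Axl* window holds 2 GC boxes, the *Gas6* window 4 and the *Pros1* window 5, 2 of which overlap. GC boxes occur in 35.7% of the 32851 mouse promoters of this length. The STAT letters occur in 8.3% of all promoters, and of these windows *Pros1* alone holds them. An interferon-stimulated response element, the letters ACGTG, bound by hypoxia-inducible factors, and the letters TGANTCA, bound by AP-1, were searched on both strands. They occur in 3.44%, 19.6% and 7.81% of all promoters, and none of them was found in these windows. The GC content was 60.3% for *Axl*, 58.3% for *Gas6* and 66.7% for *Pros1*, above the median of 52.7% over all promoters. These are matches of letters, and binding was not measured.

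*Mertk* fell modestly. MERTK binds both GAS6 and protein S and is the main TAM receptor for apoptotic cells in resting macrophages. *Mertk* (ENSMUSG00000014361, chr2:128698956-128802894, plus strand) measured 46.9, 42.6 and 46.5 FPKM in control and 36.6, 39.1 and 37.3 FPKM in CITED2-deficient libraries. The highest CITED2-deficient value lay below the lowest control value. The means were 45.3 ± 2.39 and 37.7 ± 1.30 FPKM (SD, n = 3 each), and the log2 fold change was −0.26 (SE 0.05, interval −0.37 to −0.15, limma adjusted p = 0.002002). Under median-ratio scaling it was −0.16 (adjusted p = 0.02473).

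*Tyro3*, the TAM receptor best known from the nervous system, was barely detected. The libraries held 1, 9 and 7 *Tyro3* fragments (ENSMUSG00000027298, chr2:119797733-119818104, plus strand) in control and 18, 17 and 27 fragments in CITED2-deficient samples, or 0.0287, 0.282 and 0.200 FPKM against 0.384, 0.408 and 0.560 FPKM. The CITED2-deficient values were all higher, but *Tyro3* was below the filter. Fitted without a filter its log2 fold change was 0.31 (SE 0.10, limma adjusted p = 0.05704), which missed the threshold, and 9.9% of all 22248 genes were higher in that fit.

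The TAM receptors therefore moved in different directions within one family. The ratio of *Axl* to *Mertk* FPKM was 1.49, 1.51 and 1.45 in control and 3.93, 3.81 and 3.73 in CITED2-deficient libraries. The groups did not overlap, and the mean log2 ratio, with 1 added to each FPKM, differed by 1.35. The exact two-sided permutation test gave p = 0.1, the smallest that 3 against 3 samples allow, and adjusted over the 3 ratios tested it stayed 0.1. *Axl* made up 59.1% to 60.1% of the summed TAM receptor FPKM in control and 78.6% to 79.5% in CITED2-deficient libraries, and *Mertk* made up 39.7% to 40.7% and 20.2% to 21.1%. *Tyro3* contributed at most 0.316% in any library. The summed FPKM was 116.7, 107.3 and 114.3 in control and 180.8, 188.6 and 177.2 in CITED2-deficient libraries, higher in every CITED2-deficient library.

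**Figure D2:**
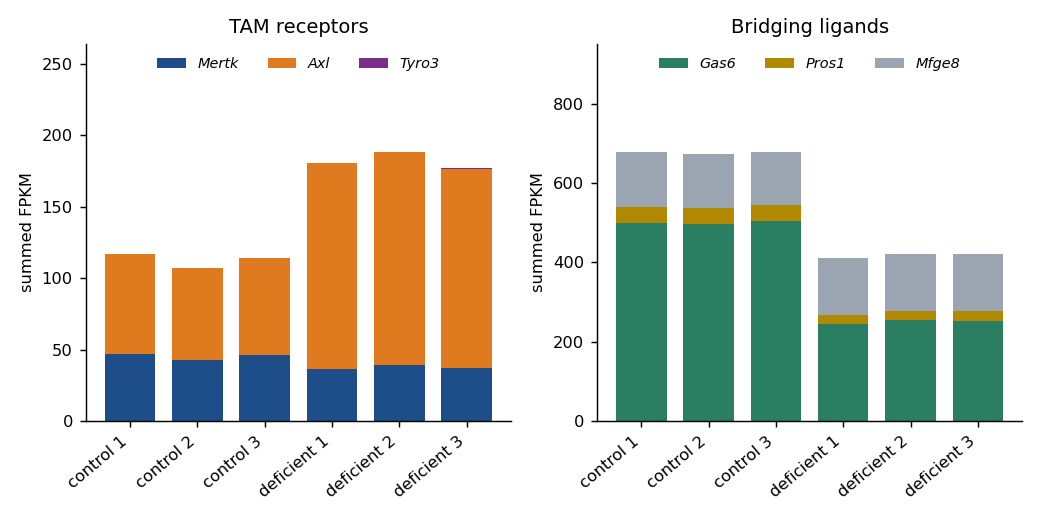
Stacked FPKM of the 3 TAM receptors and of the 3 bridging ligands in each of the 6 libraries, on linear axes that start at 0. The receptor sum is higher in every CITED2-deficient library with a larger *Axl* segment, and the ligand sum is lower in every CITED2-deficient library with a smaller *Gas6* segment.

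The ligands of the TAM receptors both fell. *Gas6* encodes a vitamin K-dependent protein that binds phosphatidylserine at one end and TAM receptors at the other. *Gas6* (ENSMUSG00000031451, chr8:13465374-13494490, minus strand) measured 498.6, 497.6 and 504.8 FPKM in control and 244.4, 254.6 and 252.8 FPKM in CITED2-deficient libraries. Replicates lay within a narrow range in both groups, and the groups were far apart. The means were 500.4 ± 3.91 and 250.6 ± 5.42 FPKM (SD, n = 3 each), a ratio of 0.501. The log2 fold change was −0.99 (SE 0.03, interval −1.06 to −0.93, limma adjusted p = 6.967e-09), the fall ranked 185 of 11687, and 14652 to 24378 fragments per library lay behind these values.

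*Pros1* encodes protein S, a plasma anticoagulant that is also a ligand of MERTK and TYRO3. *Pros1* (ENSMUSG00000022912, chr16:62854307-62929346, plus strand) measured 41.6, 39.6 and 40.4 FPKM in control and 22.1, 21.7 and 23.6 FPKM in CITED2-deficient libraries. The groups did not overlap. The means were 40.6 ± 0.990 and 22.5 ± 1.00 FPKM (SD, n = 3 each), with a log2 fold change of −0.82 (SE 0.05, interval −0.93 to −0.72, limma adjusted p = 9.337e-07). The ratio of *Gas6* to *Pros1* was 12.0, 12.6 and 12.5 in control and 11.1, 11.7 and 10.7 in CITED2-deficient libraries. *Gas6* thus fell slightly more than *Pros1* in every pairing of libraries, with a mean log2 ratio, 1 added to each FPKM, that differed by −0.17 (exact two-sided permutation p = 0.1, also 0.1 adjusted, the smallest possible).

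*Mfge8* rose by a small amount. MFG-E8, also called lactadherin, links phosphatidylserine to the integrins αvβ3 and αvβ5. *Mfge8* (ENSMUSG00000030605, chr7:79133768-79149060, minus strand) measured 138.3, 135.8 and 133.4 FPKM in control and 145.3, 144.3 and 145.3 FPKM in CITED2-deficient libraries. Its groups did not overlap, with means of 135.8 ± 2.45 and 145.0 ± 0.567 FPKM (SD, n = 3 each). The log2 fold change was 0.09 (SE 0.03, interval 0.03 to 0.16, limma adjusted p = 0.02148). The call was lost without control replicate 3 (adjusted p = 0.08055), without CITED2-deficient replicate 3 (0.05405) and without the variance trend (0.08315). Under median-ratio scaling the log2 fold change was 0.20 (adjusted p = 0.0005038). *Mfge8* made up 19.7% to 20.4% of the summed ligand FPKM in control and 34.3% to 35.3% in CITED2-deficient libraries, and *Gas6* 73.5% to 74.4% and 59.3% to 60.5%. The ligand sum was 678.5, 673.1 and 678.7 FPKM in control and 411.9, 420.7 and 421.7 FPKM in CITED2-deficient libraries. *Gas6* thus accounts for most of the lower sum.

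The stromal markers that were higher in CITED2-deficient BMDMs moved opposite to the 2 TAM ligands and in the same direction as *Axl* and *Mfge8*. Without CITED2-deficient replicate 1, which had the most stromal RNA, the log2 fold changes were −0.98 for *Gas6*, −0.81 for *Pros1*, −0.24 for *Mertk* and 0.09 for *Mfge8*. All 4 still passed the threshold, *Mfge8* only narrowly (limma adjusted p = 0.04975). *Mfge8* was 145.3 FPKM in both replicates 1 and 3 of the CITED2-deficient group, where the stromal marker sums were 627 and 224.4 FPKM. Replicates 2 and 3 of that group, at 221.3 and 224.4 FPKM, still lay above the control sums of 59.0 to 69.1 FPKM. Leaving out replicate 1 therefore does not separate stromal RNA from genotype. The part of stromal RNA in the *Axl*, *Mfge8*, *Gas6*, *Pros1* and *Mertk* differences between the genotypes was not tested.

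*Timd4*, which marks long-lived resident macrophages and directly binds phosphatidylserine, was nearly absent. The libraries held 1, 3 and 2 *Timd4* fragments (ENSMUSG00000055546, chr11:46810800-46844332, plus strand) in control and 2, 2 and 5 in CITED2-deficient samples, or 0.0244 to 0.0799 FPKM against 0.0362 to 0.0882 FPKM. The groups overlapped, and a difference was not detectable at this depth (limma without a filter, adjusted p = 0.9378).

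*Elmo1* and *Dock2* encode partners of one complex, in which ELMO1 holds and activates DOCK2, the RAC exchange factor of blood cells. *Elmo1* (ENSMUSG00000041112, chr13:20090596-20608353, plus strand) measured 51.0, 46.2 and 47.9 FPKM in control and 47.7, 48.0 and 48.0 FPKM in CITED2-deficient libraries. The CITED2-deficient values lay inside the control range. The log2 fold change was −0.01 (SE 0.04, interval −0.11 to 0.09, limma adjusted p = 0.8193), and under median-ratio scaling it was 0.09, also short of the threshold (adjusted p = 0.116). *Elmo1* overlaps 3 other annotated genes on its strand and *Mertk* overlaps 1, so some of their fragments could have been assigned either way.

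*Dock2* (ENSMUSG00000020143, chr11:34226815-34783892, minus strand) measured 167.7, 156.1 and 164.1 FPKM in control and 183.9, 186.7 and 184.1 FPKM in CITED2-deficient libraries. Every CITED2-deficient value was higher than every control value. The means were 162.6 ± 5.91 and 184.9 ± 1.61 FPKM (SD, n = 3 each), and the log2 fold change was 0.18 (SE 0.03, interval 0.11 to 0.26, limma adjusted p = 0.001481). The *Elmo1* to *Dock2* ratio was 0.304, 0.296 and 0.292 in control and 0.260, 0.257 and 0.261 in CITED2-deficient libraries, and the log2 ratio, 1 added to each FPKM, differed by −0.20 (exact two-sided permutation p = 0.1, also 0.1 adjusted, the smallest possible).

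*Sirpa* was the most abundant of the uptake genes and differed little. *Sirpa* (ENSMUSG00000037902, chr2:129592835-129632228, plus strand) measured 1637, 1661 and 1636 FPKM in control and 1651, 1702 and 1666 FPKM in CITED2-deficient libraries. The groups overlapped, and the gene ranked 33 by level in control and 32 in CITED2-deficient BMDMs among 22248 genes. The log2 fold change was 0.02 (SE 0.02, interval −0.03 to 0.08, limma adjusted p = 0.4279), but under median-ratio scaling it was 0.13 and passed the threshold (adjusted p = 0.005946). *Sirpa* shares sequence with the *Sirpb* genes, so its fragments could have been divided among them. *Cd47*, which encodes its ligand, rose from 186.1 ± 2.63 to 258.5 ± 6.03 FPKM (SD, n = 3 each), with a log2 fold change of 0.47 (SE 0.03, limma adjusted p = 1.616e-06).

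**Figure D3:**
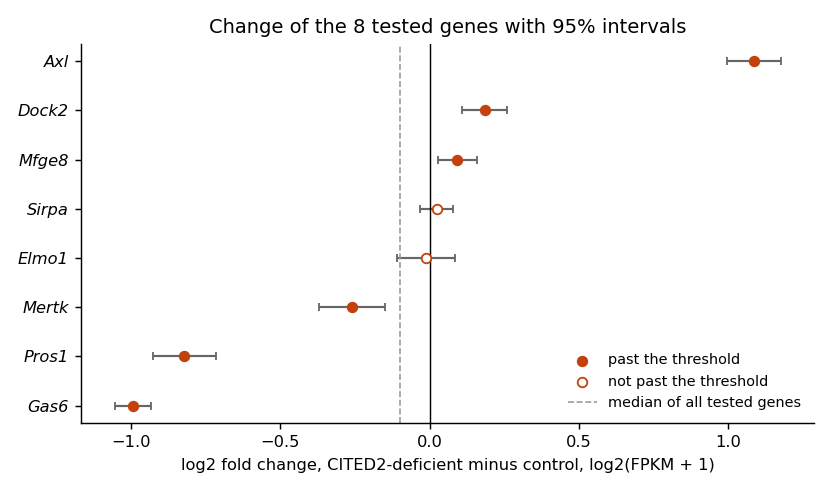
Log2 fold changes (CITED2-deficient minus control, log2(FPKM + 1)) of the 8 tested uptake genes with 95% confidence intervals; the dashed line is the median of all genes tested, −0.10. The intervals of *Axl*, *Dock2* and *Mfge8* lie above 0, those of *Gas6*, *Pros1* and *Mertk* lie below the dashed line, and those of *Elmo1* and *Sirpa* include 0.

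By level per length, the control order was *Sirpa*, *Gas6*, *Dock2*, *Mfge8*, *Axl*, *Elmo1*, *Mertk*, *Pros1*, *Tyro3* and *Timd4*. Neighbours in this order did not overlap between libraries except *Elmo1* with *Mertk*, and *Tyro3* with *Timd4*. The order of the means was the same in CITED2-deficient BMDMs, where *Mfge8* and *Axl* overlapped and all other neighbours were apart. The means of *Gas6* and *Dock2*, 500.4 and 162.6 FPKM in control, came closer together at 250.6 and 184.9 FPKM.

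Other genes of the uptake pathway moved in both directions. Of 68 further genes listed by role, 62 were tested, 25 were higher, 22 were lower and 15 did not pass the threshold, with a median log2 fold change of −0.01. Beside the 16.7% higher and 34.6% lower over all genes tested, the share that fell was close to the background and the share that rose was above it. These genes were listed with earlier results of these data known, and the difference in shares was not tested. Under median-ratio scaling 28 were higher and 16 lower, and with 1 library left out 19 to 21 were higher and 20 to 22 lower. Genes past the threshold with a log2 fold change of at least 0.5 in either direction are named, with means ± SD of 3 libraries a group, and each kept its call in every setting in which it was tested.

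Among 5 genes for sensing find-me signals, 2 were higher and 1 was lower. *P2ry2*, a receptor for released nucleotides, rose from 12.4 ± 0.220 to 21.3 ± 1.07 FPKM, a log2 fold change of 0.73. *S1pr1*, a sphingosine-1-phosphate receptor, fell by 0.94 on the log2 scale.

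Among 13 tested uptake receptors besides the TAM family and *Timd4*, 5 were higher and 7 were lower. Under median-ratio scaling 5 were lower, and with 1 library left out 4 or 5 were higher and 6 or 7 lower. *Stab1*, encoding the scavenger and phosphatidylserine receptor stabilin-1, fell from 2014 ± 64.7 to 699.1 ± 1.36 FPKM (log2 fold change −1.52, limma adjusted p = 1.049e-09). Its relative *Stab2* was much less abundant and had a log2 fold change of −0.94. *Cd300lf*, a receptor of the CD300 family that binds phosphatidylserine and ceramide, rose from 7.68 ± 0.699 to 19.3 ± 1.99 FPKM (log2 fold change 1.23). *Itgam*, the α chain of complement receptor 3, fell from 89.7 ± 0.865 to 50.9 ± 1.69 FPKM (log2 fold change −0.81).

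All 7 other bridging molecules passed the threshold, 4 higher and 3 lower. The higher genes were 3 without a filter, under quantile normalization and without the variance trend. They were also 3 without control replicate 1, control replicate 3 or CITED2-deficient replicate 3. *Thbs1*, encoding thrombospondin-1, rose from 48.1 ± 5.53 to 114.0 ± 14.2 FPKM (log2 fold change 1.23). *Anxa1*, encoding the phosphatidylserine-binding annexin A1, rose from 990.6 ± 31.2 to 1641 ± 34.6 FPKM (log2 fold change 0.73). *C1qa*, a chain of the complement component C1q that coats dying cells, fell from 1878 ± 48.4 to 1275 ± 9.64 FPKM (log2 fold change −0.56). The other C1q chains, *C1qb* and *C1qc*, named after their values were seen, had log2 fold changes of −0.35 and −0.36 and complete the lower genes of this group.

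Among 16 tested engulfment signaling genes, 6 were higher, 5 were lower and 5 did not pass the threshold. Under median-ratio scaling 3 were lower, and 4 were higher without any 1 of the control replicates or without CITED2-deficient replicate 1. The DOCK genes differed from each other. *Dock1*, which encodes DOCK180, the ELMO partner first tied to apoptotic cell uptake, fell from 18.2 ± 0.995 to 11.6 ± 0.707 FPKM (log2 fold change −0.61), while *Dock5* rose from 3.63 ± 0.227 to 10.3 ± 0.161 FPKM (log2 fold change 1.29). In both groups *Dock2* was the most abundant of these 3 exchange factors. *Bcar1*, the scaffold p130Cas, had a log2 fold change of 0.74 at a control level of 0.974 FPKM.

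Among 13 genes for digestion and lipid handling after uptake, 4 were higher and 5 were lower. The lower genes were 3 under median-ratio scaling, under quantile normalization and without the variance trend, and 8 with limma-voom on recovered fragments. *Cybb*, the catalytic subunit of the phagocyte NADPH oxidase, rose from 724.8 ± 10.1 to 1394 ± 34.0 FPKM (log2 fold change 0.94, limma adjusted p = 1.108e-08). The nuclear receptors of this group split: *Nr1h3*, encoding LXRα, had a log2 fold change of 0.74, while *Ppard* and *Rxra* had −0.86 and −0.78. *Abcg1*, a cholesterol exporter, rose from 98.7 ± 1.13 to 169.6 ± 8.36 FPKM (log2 fold change 0.77). Among 6 tested inhibitory genes, 3 were higher, *Cd47* among them, and 1 was lower. The other higher genes, *Ptpn6* and *Ptpn11*, encode the phosphatases SHP-1 and SHP-2 and are named after their values were seen. They had small log2 fold changes of 0.09 and 0.12 and kept their calls in 6 and 5 of 14 settings. The count of higher genes was 1 without control replicate 1, control replicate 3 or CITED2-deficient replicate 2, and 2 without any other library or with the replicate block. It was also 1 without a filter and without the variance trend. Under median-ratio scaling, under quantile normalization, with a filter of 5 FPKM and with limma-voom on recovered fragments it was 4. The lower gene was *Siglece*, a sialic acid-binding inhibitory receptor, at 7.15 ± 0.623 FPKM in control and 1.74 ± 0.0747 FPKM in CITED2-deficient BMDMs (log2 fold change −1.57, limma adjusted p = 1.393e-06). Of the proteases that shed MERTK and AXL from the cell surface, named after their values were seen, *Adam17* had a log2 fold change of 0.23 (limma adjusted p = 0.0003239) and *Adam10* one of −0.02 (adjusted p = 0.573).

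**Figure D4:**
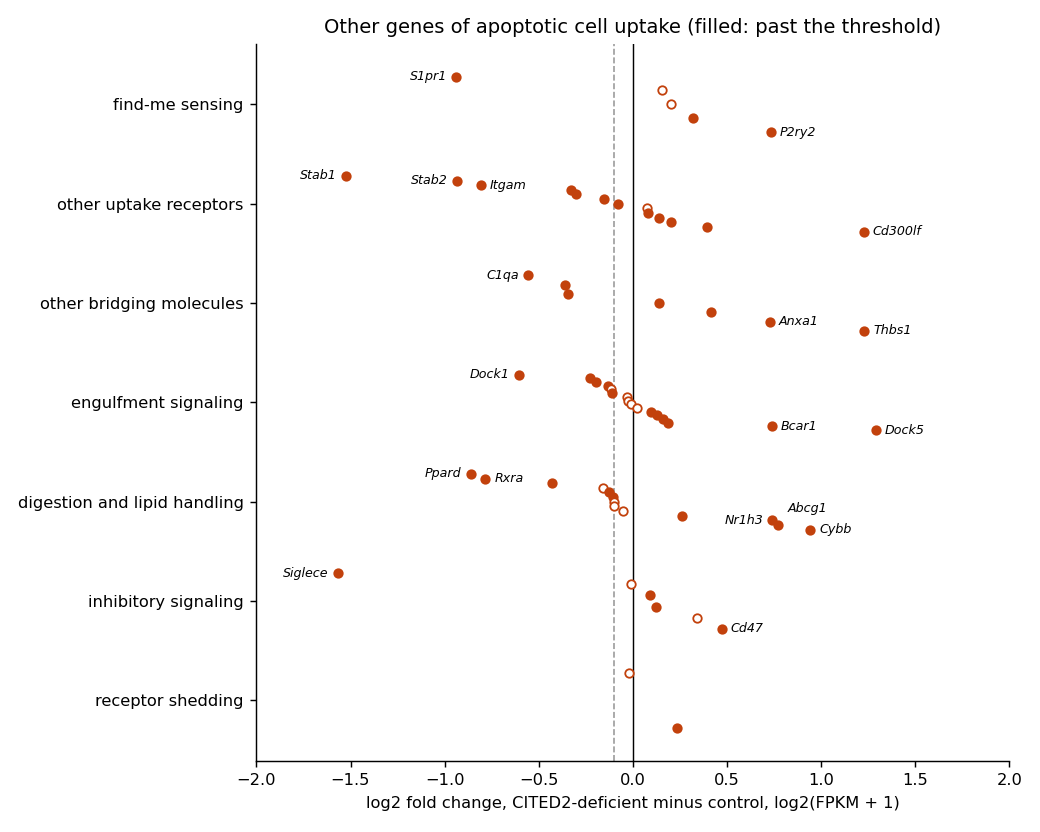
Log2 fold changes (CITED2-deficient minus control, log2(FPKM + 1)) of the 62 other tested genes by role, 1 point per gene, filled where past the threshold; the dashed line is the median of all genes tested. Genes named by the size rule and *Cd47* are labelled, with *Stab1* and *Siglece* farthest to the left and *Dock5*, *Thbs1* and *Cd300lf* farthest to the right.

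The call of each uptake gene was recomputed under 14 other settings. *Axl*, *Gas6*, *Pros1*, *Mertk* and *Dock2* kept theirs in all 14. The log2 fold change of *Axl* ranged from 1.06 to 1.19, that of *Gas6* from −1.01 to −0.89 and that of *Pros1* from −0.86 to −0.72. *Mertk* ranged from −0.30 to −0.16 and *Dock2* from 0.16 to 0.29.

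**Figure D5:**
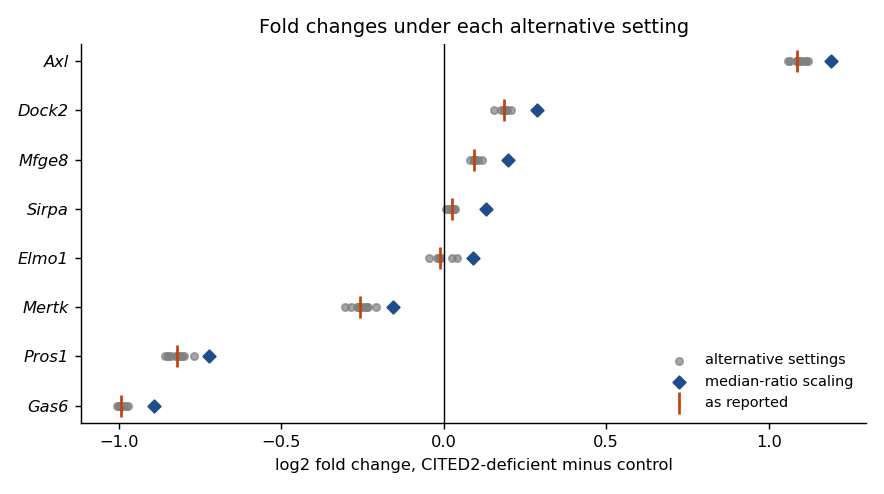
Log2 fold changes (CITED2-deficient minus control) of the 8 tested uptake genes under each setting, with a bar at the reported value, grey points for the other settings and a diamond for median-ratio scaling. The diamond lies to the right of the other points for every gene, and the values of *Elmo1* alone lie on both sides of 0.

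Markers of other cell types were also read in these libraries. The counts given here stand beside 16.7% higher and 34.6% lower over all genes tested. Granulocyte and precursor markers, summed over 12 genes, were at 747.2 to 815.8 FPKM in control and 667 to 785.7 FPKM in CITED2-deficient libraries, with 2 higher and 7 lower of 10 tested. Single genes differed more than the sums. Of the lower genes, *Elane* fell from 12.4 to 2.15 FPKM and *Mpo* from 16.2 to 1.95 FPKM, while *Ltf*, among the higher, rose from 94.3 to 177.4 FPKM. The sum over 4 endothelial markers rose from between 5.16 and 5.33 FPKM to between 25.9 and 31.4 FPKM, with 2 of 2 tested higher. Most of this sum was *Kdr*, at 4.26 FPKM in control and 27.5 FPKM in CITED2-deficient libraries. *Cdh5*, the other tested marker, was at 0.720 and 1.52 FPKM. *Tek* and *Emcn* lay under 1 FPKM and did not pass the threshold without a filter. The sums of the other lists stayed under 5 FPKM in every library, for dendritic cells (0.867 to 1.23 against 2.28 to 2.43 FPKM), B lymphocytes (2.65 to 3.88 against 3.77 to 4.30 FPKM, 1 of 2 tested higher), T or NK lymphocytes (0.603 to 0.955 against 0.580 to 0.961 FPKM) and mast cells or basophils (2.57 to 2.86 against 0.453 to 0.579 FPKM). Of the macrophage markers, 2 were higher, 2 were lower and 3 did not pass the threshold. *Fcgr1* rose from 172.5 to 482.4 FPKM and *Mpeg1* from 1371 to 1689 FPKM. *Adgre1* fell from 2214 to 1776 FPKM and *Csf1r* from 1135 to 915.6 FPKM. No marker was at 0 in all libraries. The part of these cell types in the differences of the uptake genes was not tested.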

How the data were processed

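Total RNA of unstimulated BMDMs was sequenced from 3 control and 3 CITED2-deficient samples. The authors removed ribosomal RNA, prepared stranded libraries, mapped reads with STAR to mm10 and deposited FPKM per gene and library from Cufflinks and Cuffdiff. Tool versions: not given in the sources used here. Because FPKM are relative to the library total, large changes in abundant genes move the values of all other genes. Fragment numbers were recovered with mean transcript lengths of GENCODE vM21. Whole numbers, to within 0.02, came out in all 6 libraries for 21374 of 22239 matched genes (96.1%), and such numbers cover counting error only. No 2 replicates were the same library (mean chi-square per gene 2.21 to 5.5, where sampling noise gives about 1).

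Genes with a mean of at least 1 FPKM entered a limma fit (version 3.58.1, R 4.3.3) of log2(FPKM + 1) that let the variance depend on the mean level, with a Benjamini-Hochberg threshold of 0.05 and no fold threshold. Ratios within a library were compared by exact two-sided permutation tests. The scripts were tested on simulated data. The uptake genes and the gene lists were chosen with earlier results of these data known. Named were the 10 uptake genes, *Cited2*, *Cd47* and other uptake pathway genes past the threshold with a log2 fold change of at least 0.5 in either direction, which were 18, at most 20. Marker lists were given as counts and ranges, and single markers were named after their values were seen. Alternatives were the pseudocount, filter, scaling, variance trend, replicate block, each library left out and limma-voom on recovered fragments. The removal of CITED2-deficient replicate 1 as the library with the most stromal RNA, and the shares within the receptors and ligands, were added after seeing the data. Of the 10 uptake genes, 9 matched a RefSeq promoter, and *Sirpa* was not among them.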

Additional observations from a re-analysis of the deposited data

How the results depend on the processing

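The counts of 3 higher and 3 lower uptake genes stayed within 1.5 times under every alternative. *Elmo1*, which did not pass the threshold in any setting, turned sign to 0.0888 under median-ratio scaling and 0.0402 under quantile normalization, and ranged from −0.0449 to 0.0257 when 1 library was left out. *Mfge8* lost its call in 3 settings and *Sirpa* gained one under median-ratio scaling. Median-ratio scaling moved the median of all genes from −0.10 to −0.01 and the share of higher genes among all calls from 32.5% to 52%; quantile normalization moved it to 42%. Same-numbered samples did not deviate together (correlations of 0.0138, 0.00784 and 0.0402), so no shared effect of the replicate number was seen. These correlations cannot show whether samples with the same number were prepared together. With a replicate block, 3 uptake genes were higher and 3 lower, 22 and 21 genes of the wider list, and 1895 and 3813 of all genes. *Tyro3* and *Timd4* are limited by depth, with at most 27 and 5 fragments in a library.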
